A study of Mus musculus with 16 samples.

Results

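The interaction of MYCi975 and TMP195 asks, gene by gene, whether the effect of giving both compounds differed from the sum of the effects of giving each alone. It was computed in enriched LLC1 tumour cells, from the Lewis lung carcinoma line of mouse, as the Combo mean minus the MYCi975 mean minus the TMP195 mean plus the Vehicle mean. Every gene whose value lay at least 1 above the lowest value of the table, 4.84, in at least 4 of the 16 libraries was taken, which gave 15715 of 24334 genes (64.6%). Tumour-bearing mice had been treated for 16 days with both compounds (Combo, for which the dose of each is not stated), with 50 mg/kg MYCi975, with 50 mg/kg TMP195, or with DMSO (Vehicle), and each of these 4 groups holds 4 libraries. The labels give no strain, sex or age of the mice, no route of dosing, no way of enriching the tumour cells, and no word on whether each library came from its own animal. P-values therefore measure the spread between libraries, which may be technical.

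MYC is a transcription factor that pairs with MAX on E-box sequences and drives genes of ribosome production, nucleotide synthesis, mitochondria and the cell cycle, and MYCi975 is a small molecule inhibitor of MYC. Class IIa histone deacetylases (Hdac4, Hdac5, Hdac7 and Hdac9) act mainly as corepressors bound to transcription factors such as those of the MEF2 family, and TMP195 occupies their catalytic pocket. An interaction of 0 means that the effects add up on the log2 scale. A negative interaction means that Combo lies below the additive sum (the MYCi975 mean plus the TMP195 mean minus the Vehicle mean), and a positive one that it lies above.

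Mesenchymal Vim was high in these libraries and the epithelial markers Epcam and Cdh1 were low, while simple keratins, which are epithelial, were also expressed. Which cells gave these transcripts was not tested. Vim, a mesenchymal intermediate filament, had a median of 17.09 over the libraries (range 16.69 to 17.54), and the simple keratins Krt8 and Krt18 had medians of 10.62 and 10.86. Epcam and Cdh1, which mark epithelia, reached the filter value of 5.84 in 1 and 2 libraries. Of the leukocyte markers, Ptprc (CD45) reached it in 15 libraries, with a highest value of 8.95, so the enriched cells were not free of leukocyte RNA. In bulk RNA, a smaller number of cells of a type and less RNA per cell cannot be told apart. TMP195 replicate 1 and MYCi975 replicate 3 were the highest libraries of their groups in leukocyte and neutrophil markers, and replicate 4 of MYCi975, TMP195 and Vehicle stood apart on the first principal component.

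No gene departed from additivity at an adjusted p under 0.05 (0%, limma with Benjamini-Hochberg adjustment over all genes tested), and the smallest adjusted p was 0.9999. An unadjusted p under 0.05 was reached by 471 genes, 3.0% of those tested, of which 220 (1.40%) were positive and 251 (1.60%) were negative. Below an unadjusted p of 0.01 lay 62 genes (0.395%), and 4 genes were below 0.001. The number per bin of p was lowest at the low end, with 471 genes between 0.00 and 0.05 and 638 between 0.05 and 0.10, against 851 between 0.95 and 1.0. With no interaction in any gene and a well calibrated test, each bin would hold about the same number. Why small p-values were fewer than that was not tested. The share under 0.05 was 3.76% with replicate number as a block and 4.87% with sample quality weights. It was 1.53% with the mean of the leukocyte markers as a covariate. These counts do not show that the compounds acted additively on every gene, since an interaction is estimated less precisely than a comparison of groups.

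**Figure D1:**
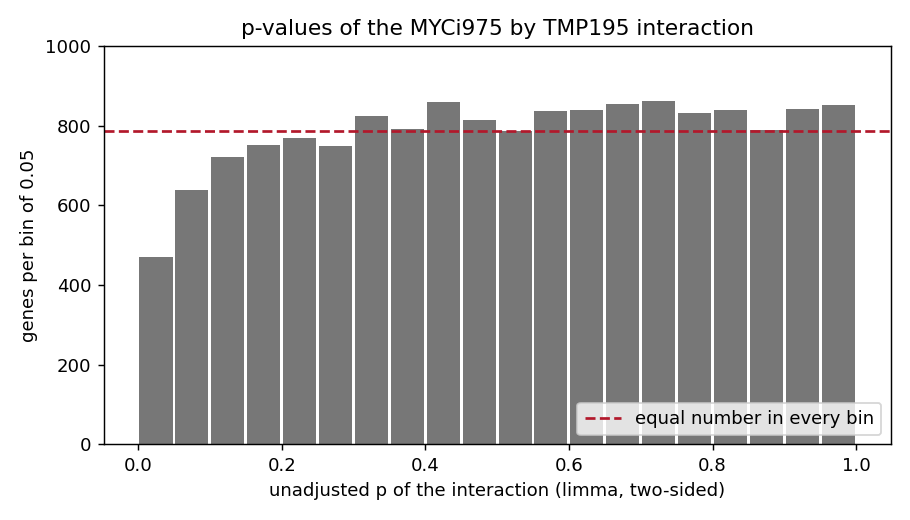
Number of genes (y axis) in each bin of 0.05 of the unadjusted p of the interaction (x axis) over the 15715 genes tested, with a dashed line at an equal number in every bin. The first bin holds 471 genes and lies furthest below the line.

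The estimates were small and centred near 0. Their median was 0.01 on the log2 scale with an SD of 0.28, and the estimates ran from -0.13 at the 25th percentile to 0.15 at the 75th percentile. An estimate beyond 1 in size was found for 131 genes, 56 positive and 75 negative. The median standard error of the interaction was 0.22, against 0.16 for the difference of 2 groups, a ratio of 1.41, and the median 95% interval reached 0.47 to either side of the estimate. The intervals lay wholly between -1 and 1 for 13743 genes (87.5%) and wholly between -0.5 and 0.5 for 3933 genes (25%). Additivity to within 0.5 log2 units was thus bounded for 25% of the genes. Only 12 genes had an interval lying wholly beyond 0.5 in size.

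Precision followed expression. Genes were divided into 4 classes of equal size by mean value. In the class with the lowest means, between 5.21 and 6.74, the median standard error was 0.246 and 82.0% of intervals lay within 1 of 0. In the class with the highest means, between 10.47 and 21.53, the median standard error was 0.188 and 94.3% of intervals did. The share of genes at an unadjusted p under 0.05 was 4.96%, 3.21%, 2.44% and 1.37% from the lowest to the highest class. A stricter filter, at least 3 above the lowest value in at least 8 libraries, kept 9580 genes. Of these, 129 were positive and 64 negative at that threshold, against 220 and 251 as reported, so the balance of signs turned. Variance stabilisation compresses the differences of weakly expressed genes, so their log2 values understate fold changes, and for 6 genes the additive sum lay below the lowest value of the table, where no library could reach it.

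The transcripts of the drugs' own targets showed no detectable departure from additivity. Myc averaged 11.51 ± 0.49 in Combo, 11.54 ± 0.29 in MYCi975, 11.83 ± 0.23 in TMP195 and 11.75 ± 0.25 in Vehicle (SD, n = 4 each). Its interaction was -0.11 with a 95% interval from -0.73 to 0.51, so that a departure of either sign up to about that size could not be detected. Max, the partner of MYC, had an interaction of 0.08 (95% interval -0.28 to 0.44). Among the class IIa deacetylases the interactions were -0.11 for Hdac4 (-0.48 to 0.27), 0.07 for Hdac5 (-0.40 to 0.54), 0.16 for Hdac7 (-0.22 to 0.55) and -0.05 for Hdac9 (-0.47 to 0.37). Hdac7 kept its sign whichever library was left out, and the estimates of Myc, Max, Hdac4, Hdac5 and Hdac9 were small enough to change sign. MYCi975 acts on the MYC protein and TMP195 on deacetylase activity, which these transcript values do not measure.

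The 12 named genes with a negative interaction and the smallest p were mostly high in TMP195. In 11 of the 12, TMP195 had the highest mean of the 4 groups, and Combo means differed from Vehicle means by between -0.22 (Ctsh) and 0.33 (Xylt1). TMP195 also had the highest mean in 185 of the 251 negative genes at an unadjusted p under 0.05, and in the other 66 MYCi975 had the highest mean. Over all 15715 genes tested, TMP195 had the highest mean in 3881 and MYCi975 in 3531. A negative interaction requires high single-compound means relative to Combo and Vehicle, so that part of the pattern follows from the choice of genes, whereas the choice does not fix which compound was the high one. None of these genes passed the adjusted threshold, and each adjusted p was 0.9999 (limma).

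Ptpn5, which encodes a tyrosine phosphatase best known from neurons, had the smallest p of the negative genes. Its values were 5.33, 4.84, 5.07 and 5.55 in Combo, 5.86, 6.12, 5.21 and 5.64 in MYCi975, 6.39, 5.88, 5.86 and 5.53 in TMP195, and 5.12, 5.11, 5.23 and 5.15 in Vehicle. TMP195 and MYCi975 libraries were mostly above both other groups, all TMP195 libraries lay above all Vehicle libraries, and Combo overlapped Vehicle. The Combo mean was 5.20 against an additive sum of 6.47, an interaction of -1.27 ± 0.29 (SE, unadjusted p = 0.000357). These values sit within 2 units of the lowest value of the table, where 1 Combo library lay.

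Xylt1, the xylosyltransferase that starts glycosaminoglycan chains on proteoglycans, had the same order. Its values were 5.22, 6.01, 5.45 and 5.88 in Combo, 5.79, 6.17, 6.08 and 5.75 in MYCi975, 6.38, 5.88, 5.95 and 6.94 in TMP195, and 5.26, 5.41, 5.18 and 5.39 in Vehicle. Every library of either single compound lay above every Vehicle library, and Combo ranged from the Vehicle level to that of the single compounds. The interaction was -1.29 ± 0.30 (SE, unadjusted p = 0.000562).

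Car9, carbonic anhydrase IX and a standard marker of hypoxia, was high in TMP195 alone. Its values were 6.72, 7.0, 6.46 and 6.92 in Combo, 6.98, 6.37, 6.93 and 7.23 in MYCi975, 7.75, 7.85, 7.52 and 7.88 in TMP195, and 7.09, 6.34, 7.18 and 6.69 in Vehicle. The 4 TMP195 libraries lay above the 12 others, and the other groups overlapped one another. Combo differed from MYCi975 by -0.10, while TMP195 differed from Vehicle by 0.92, and the interaction was -1.02 ± 0.29 (SE, unadjusted p = 0.00232).

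Cd93, a surface receptor of endothelial and myeloid cells, repeated that picture. Its values were 6.47, 6.56, 6.26 and 6.88 in Combo, 6.31, 6.39, 6.55 and 6.57 in MYCi975, 8.0, 7.57, 7.47 and 7.32 in TMP195, and 6.69, 6.59, 6.39 and 6.68 in Vehicle. All TMP195 libraries lay above all others. The effect of TMP195 was 0.09 with MYCi975 and 1.0 without it, which gave an interaction of -0.92 ± 0.23 (SE, unadjusted p = 0.000864).

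Acvr2b, a type II receptor for activins, and Abhd18 were the negative genes with the narrowest intervals. Acvr2b had 7.87, 7.93, 7.98 and 8.09 in Combo, 8.18, 8.27, 8.23 and 8.03 in MYCi975, 8.11, 8.44, 8.12 and 8.12 in TMP195, and 7.85, 7.76, 7.93 and 7.61 in Vehicle. The Combo mean was 7.97, against an additive sum of 8.59, and lay 0.18 above Vehicle. Each compound alone was above Vehicle in every library, by 0.39 for MYCi975 and 0.41 for TMP195. The interaction was -0.62 (95% interval -0.97 to -0.27) for Acvr2b and -0.67 (-1.05 to -0.29) for Abhd18.

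Most of the remaining negative genes are expressed by myeloid cells. Cxcl3, a chemokine that attracts neutrophils, had 5.43, 5.57, 5.50 and 5.73 in Combo, 5.68, 5.31, 6.75 and 5.15 in MYCi975, 7.59, 7.25, 6.23 and 6.74 in TMP195, and 5.90, 5.27, 5.09 and 5.77 in Vehicle. Its TMP195 libraries all lay above the Combo and Vehicle libraries, MYCi975 replicate 3 stood at the TMP195 level, and the interaction was -1.61 ± 0.45 (SE, unadjusted p = 0.00222). The interaction was -1.49 for Ccl6, a chemokine of myeloid cells in the mouse, and -1.56 for Clec4e, which encodes the fungal and mycobacterial receptor Mincle. It was -1.13 for Cytip, a cytohesin partner of leukocytes, -0.92 for the complement component C4b and -0.90 for the lysosomal protease Ctsh. With the mean of the leukocyte markers as a covariate these became -0.84 for Cxcl3, -0.72 for Ccl6, -0.83 for Clec4e, -0.78 for Cytip, -0.58 for C4b and -0.62 for Ctsh, and that of Cd93 became -0.65, whereas Ptpn5 stood at -1.28, Acvr2b at -0.63, Abhd18 at -0.66 and Car9 at -0.83.

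**Figure D2:**
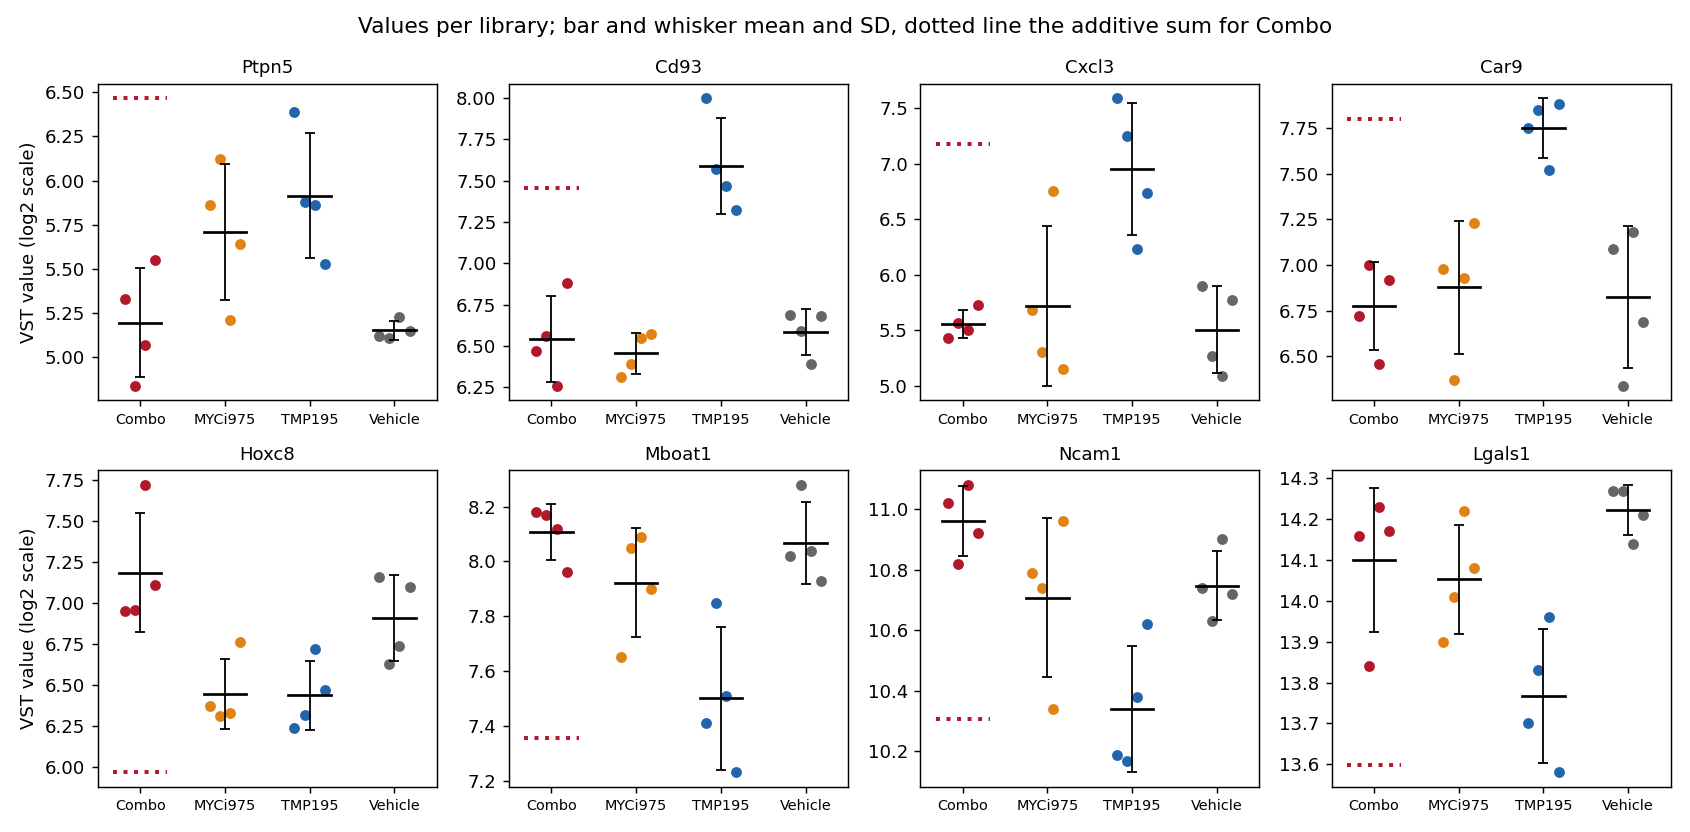
Variance-stabilised values on the log2 scale (y axis) of 8 genes in each library of Combo, MYCi975, TMP195 and Vehicle (x axis), with the group mean and SD (n = 4 libraries) as bar and whisker and the additive sum for Combo as a dotted line. In the upper row Combo lies below the dotted line and TMP195 is high; in the lower row Combo lies above it, and TMP195 is low or, for Hoxc8, level with MYCi975.

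Markers of leukocytes and of myeloid cells had mostly negative interactions. The filter kept 7 of 10 leukocyte, 8 of 14 macrophage and monocyte, 8 of 11 neutrophil and 10 of 11 dendritic cell and MHC class II markers. Tyrobp, Fcer1g and Mmp8 reached the filter value in 4 libraries and Csf1r in 5. A weak marker can pass through the group in which it is high, so its sign can follow in part from the filter. All 7 tested leukocyte markers were negative, with a median of -0.85 and 3 at an unadjusted p under 0.05, beside a median of 0.01 and 3.0% over all genes. All 8 macrophage and monocyte markers were negative (median -0.71, 4 at an unadjusted p under 0.05), as were all 8 neutrophil markers (median -0.91, 4 at an unadjusted p under 0.05), and 8 of 10 markers of dendritic cells and MHC class II (median -0.34). Ptprc itself had means of 6.65 in Combo, 6.91 in MYCi975, 8.05 in TMP195 and 6.92 in Vehicle, and an interaction of -1.39 ± 0.60 (SE, unadjusted p = 0.0339). S100a9, a calcium-binding protein of neutrophils, had -2.20, and Il1b, the cytokine interleukin 1 beta of activated myeloid cells, had -2.32 with an unadjusted p of 0.028.

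The leukocyte signal was uneven between libraries. The mean of the 7 leukocyte markers was 5.68, 6.05, 5.67 and 5.94 in Combo, 5.80, 5.60, 6.56 and 5.99 in MYCi975, 7.33, 6.75, 5.88 and 6.38 in TMP195, and 5.72, 5.72, 5.98 and 6.33 in Vehicle. TMP195 replicate 1 was the highest of the 16 and TMP195 replicate 3 lay among the Vehicle values, so the groups overlapped. Without TMP195 replicate 1 and MYCi975 replicate 3 the median interaction of the leukocyte markers was -0.39, with 0 of 7 at an unadjusted p under 0.05. TMP195 replicate 2, the second highest library of the 16, stayed in that fit. A fit without TMP195 replicates 1 and 2, chosen after seeing the data, gave a median of -0.41, also with 0 of 7, and the median was -0.55 without TMP195 replicate 1 alone. Of the T cell, B cell and NK cell lists, 1 of 10, 2 of 6 and 0 of 7 genes passed the filter, and both B cell markers were positive (median 0.19). Of 10 endothelial markers 4 passed, with a median of -0.15. Fibroblast and pericyte markers went the other way in value, with 7 of 8 positive and a median of 0.15, and Col3a1 among them reached 17.15. That median was -0.05 without MYCi975 replicate 3, 0.02 without TMP195 replicate 1 and MYCi975 replicate 3, and 0.01 with the leukocyte covariate, with 4 of 8 positive. Tumour cells and fibroblasts cannot be told apart as the source of these transcripts. What part these other cells had in the interaction of other genes was not tested beyond the covariate and the left-out libraries.

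The 12 named genes with a positive interaction were mostly low in TMP195. TMP195 had the lowest mean of the 4 groups in 10 of the 12, and in 151 of the 220 positive genes at an unadjusted p under 0.05, with MYCi975 the lowest in the other 69. Over all 15715 genes tested, TMP195 had the lowest mean in 4385 and MYCi975 in 3709. As for the negative genes, the low single-compound means follow from the choice, and no gene passed the adjusted threshold.

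Hoxc8, a homeobox transcription factor of body patterning, had the smallest p of all named genes. Its values were 6.95, 6.96, 7.72 and 7.11 in Combo, 6.37, 6.31, 6.33 and 6.76 in MYCi975, 6.24, 6.32, 6.72 and 6.47 in TMP195, and 7.16, 6.63, 6.74 and 7.10 in Vehicle. All Combo libraries lay above all libraries of either single compound, and Combo and Vehicle overlapped. Combo differed from Vehicle by 0.27, MYCi975 by -0.47 and TMP195 by -0.48, and the interaction was 1.22 ± 0.26 (SE, unadjusted p = 0.00025, adjusted p = 0.9999 in limma).

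Mboat1, a lysophospholipid acyltransferase, was low in TMP195 alone. Its values were 8.18, 8.17, 8.12 and 7.96 in Combo, 7.65, 8.05, 8.09 and 7.90 in MYCi975, 7.41, 7.85, 7.51 and 7.23 in TMP195, and 8.02, 8.28, 8.04 and 7.93 in Vehicle. Every TMP195 library lay below every Combo and Vehicle library, and the interaction was 0.75 ± 0.20 (SE, unadjusted p = 0.00191).

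Ncam1, the neural cell adhesion molecule, was also low in TMP195. Its values were 11.02, 10.82, 11.08 and 10.92 in Combo, 10.79, 10.74, 10.34 and 10.96 in MYCi975, 10.19, 10.17, 10.38 and 10.62 in TMP195, and 10.74, 10.63, 10.90 and 10.72 in Vehicle. TMP195 again lay below Vehicle in every library, and the TMP195 effect was 0.25 with MYCi975 and -0.40 without it, an interaction of 0.65 ± 0.18 (SE, unadjusted p = 0.00248).

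Lgals1 encodes galectin 1, a secreted lectin that binds beta-galactosides. It had 14.16, 13.84, 14.23 and 14.17 in Combo, 13.90, 14.01, 14.22 and 14.08 in MYCi975, 13.70, 13.83, 13.96 and 13.58 in TMP195, and 14.27, 14.27, 14.14 and 14.21 in Vehicle. Combo differed from MYCi975 by 0.05, while TMP195 was below Vehicle in every library and by 0.46 on average, and the interaction was 0.50 ± 0.16 (SE, unadjusted p = 0.00577).

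Enpp1, an ectoenzyme that hydrolyses extracellular nucleotides, had the highest positive estimate of the 12, 1.34, with the widest interval, 0.44 to 2.24. Its values were 8.14, 7.73, 7.39 and 7.65 in Combo, 6.96, 7.02, 5.93 and 7.22 in MYCi975, 7.22, 6.02, 6.80 and 7.11 in TMP195, and 7.26, 7.34, 7.60 and 6.55 in Vehicle. Combo lay above both single compounds in every library, and 1 library of each single compound was low, at 5.93 in MYCi975 and 6.02 in TMP195.

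The other positive genes were of several kinds. Cyp46a1, which turns cholesterol into 24-hydroxycholesterol, had 0.83, and the neuronal sorting receptor Sorcs2 had 0.97. The adhesion receptor Adgrl1 (latrophilin 1) had 0.90, Bcl7c, a subunit of BAF chromatin remodelling complexes, had 0.53, and Tubgcp2, of the gamma-tubulin complex that nucleates microtubules, had 0.41. Zkscan17 had 0.64 and Tbc1d31 had 0.44. All 24 named genes kept their sign and an unadjusted p under 0.05 whichever single library was left out, and also without TMP195 replicate 1 and MYCi975 replicate 3 together. With the leukocyte covariate 22 of the 24 did. The exceptions were Bcl7c at 0.39 (unadjusted p = 0.0507 in limma) and Tbc1d31 at 0.33 (0.0502). Genes picked for a small p tend to have estimates that are too large in size. Refits of the same libraries do not check them independently.

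**Figure D3:**
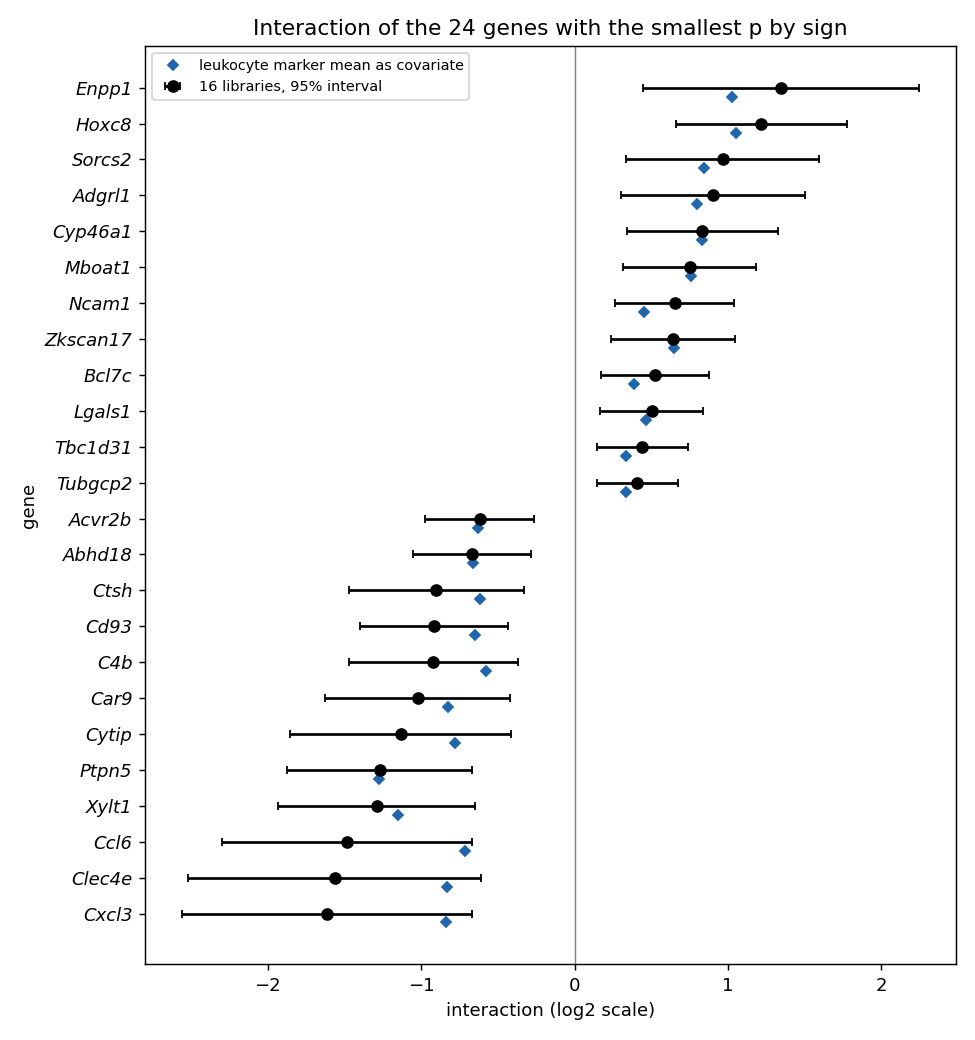
Interaction on the log2 scale (x axis) with its 95% interval for the 12 positive and 12 negative genes of smallest p (y axis), and the estimate with the leukocyte marker mean as a covariate as diamonds. The diamonds of Cxcl3, Clec4e and Ccl6 lie between -0.84 and -0.72, against -1.61, -1.56 and -1.49 without the covariate, while those of Ptpn5, Acvr2b and Abhd18 lie close to their points.

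Over 39 lists of pathway genes, 28 of 1133 tested genes, each counted once (2.47%), had an unadjusted p under 0.05, against 3.0% of all genes tested. None passed the adjusted threshold. The lists are described by the signs and the median of their estimates, beside 8144 positive and 7571 negative estimates and a median of 0.01 over all genes. A list of genes that are expressed together shares its library-to-library variation, so many equal signs can come from few libraries.

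The lists of the MYC network, MYC target genes and ribosomes had medians near 0, which does not bound the interaction of single genes. Nucleotide synthesis and cell cycle lists, which MYC also drives, are given below. The 12 tested genes of the MYC network had a median of -0.09, with the repressors Mxd1 at -0.35 and Mnt at -0.18. The 60 MYC target genes had a median of 0.03, 40 positive and 20 negative, and an extreme range from -0.37 to 0.36, with the sterol-binding protein Tmem97 at 0.36 and the ribosome assembly factor Mrto4 at 0.30. Of 58 ribosome biogenesis genes, 26 were positive and 32 negative (median -0.06), and 1 gene in each direction had an unadjusted p under 0.05. These were Pwp2, a small subunit processome protein, at -0.34 and Rrp7a, another processing factor, at 0.43. The 77 cytosolic ribosomal protein genes had a median of -0.02, with Rpl35 at -0.68 and Rps25 at 0.39, and single members of this family are uncertain because near-identical copies share reads.

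The class IIa deacetylases and MEF2 factors had a median of 0.00 over 7 genes, with Mef2c at 0.53 but an interval from -0.66 to 1.72. The 12 tested MEF2 target genes had a median of 0.30, 10 of them positive, and none at an unadjusted p under 0.05. Egr1, an immediate early transcription factor, had 0.53 and the Krüppel-like factor Klf6 had 0.29. The list mean was 10.61, 10.77, 10.24 and 11.03 in Combo, 10.37, 10.29, 10.33 and 10.82 in MYCi975, 10.96, 10.38, 10.45 and 10.26 in TMP195, and 10.39, 10.55, 10.56 and 10.63 in Vehicle. The Combo libraries thus spanned the range of all groups, and without Combo replicate 4 the median was 0.12. The immediate early genes had a median of 0.09, with 1 gene in each direction at an unadjusted p under 0.05, the MAP kinase phosphatase Dusp2 at 0.40 and the AP-1 subunit Fosl2 at -0.34. Other deacetylases and their corepressors had a median of -0.03 over 24 genes, between -0.23 and 0.23, with Sirt7 and Hdac8 at those ends.

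Mitochondrial genes are the subject of the study's title. Nuclear genes of the respiratory chain had medians of 0.01 for complex I (36 genes), 0.10 for complexes II and III (13 genes), 0.11 for complex IV (20 genes, 18 positive) and 0.08 for ATP synthase (16 genes). Single genes with an unadjusted p under 0.05 were the complex I subunits Ndufa12 at 0.45 and Ndufb8 at -0.61 and the complex III subunit Uqcr10 at 0.45. The 78 genes of the mitochondrial ribosome had a median of 0.08, 60 positive and 18 negative, none at an unadjusted p under 0.05. Among 29 genes of mitochondrial import, 3 were positive at an unadjusted p under 0.05, against 1.40% of all genes, and the median was 0.06. The count was 1 with the leukocyte covariate and 1 without TMP195 replicate 1 and MYCi975 replicate 3.

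Timm22, the channel of the inner membrane carrier translocase, had the strongest of these. Its values were 8.06, 8.28, 8.28 and 8.40 in Combo, 6.86, 7.14, 7.63 and 8.0 in MYCi975, 8.02, 7.67, 8.26 and 7.62 in TMP195, and 8.01, 7.80, 7.87 and 8.19 in Vehicle. Every Combo library lay above every MYCi975 library, TMP195 and Vehicle overlapped both Combo and each other, and the interaction was 0.92 ± 0.29 (SE, unadjusted p = 0.00621). Tomm40, the pore of the outer membrane translocase, had 0.35 (unadjusted p = 0.0285).

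Transcripts of mitochondrial DNA had the opposite sign to the nuclear lists. Of 15 tested, 12 were negative, with a median of -0.34, mt-Atp6 at -0.59 and mt-Nd1 at -0.34, none at an unadjusted p under 0.05. The list mean was 14.00, 13.98, 13.64 and 13.86 in Combo, 13.82, 14.17, 14.81 and 13.82 in MYCi975, 14.44, 13.81, 13.61 and 14.30 in TMP195, and 14.13, 13.92, 14.58 and 13.73 in Vehicle. The value of MYCi975 replicate 3 was the highest of all, and the groups overlapped. Without that library the median was -0.16, without it and TMP195 replicate 1 it was -0.001, and with the leukocyte covariate it was 0.05. The TCA cycle (median 0.02), fatty acid oxidation (0.03) and mitochondrial dynamics, biogenesis and mitophagy (-0.02) lists lay close to the median of all genes, with Pdk2 at 0.41 and Me2 at -0.33 in the first, Acadm at -0.37 and Slc25a20 at -0.29 in the second, and Bnip3 at -0.46 and Atf5 at 0.34 in the third.

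**Figure D4:**
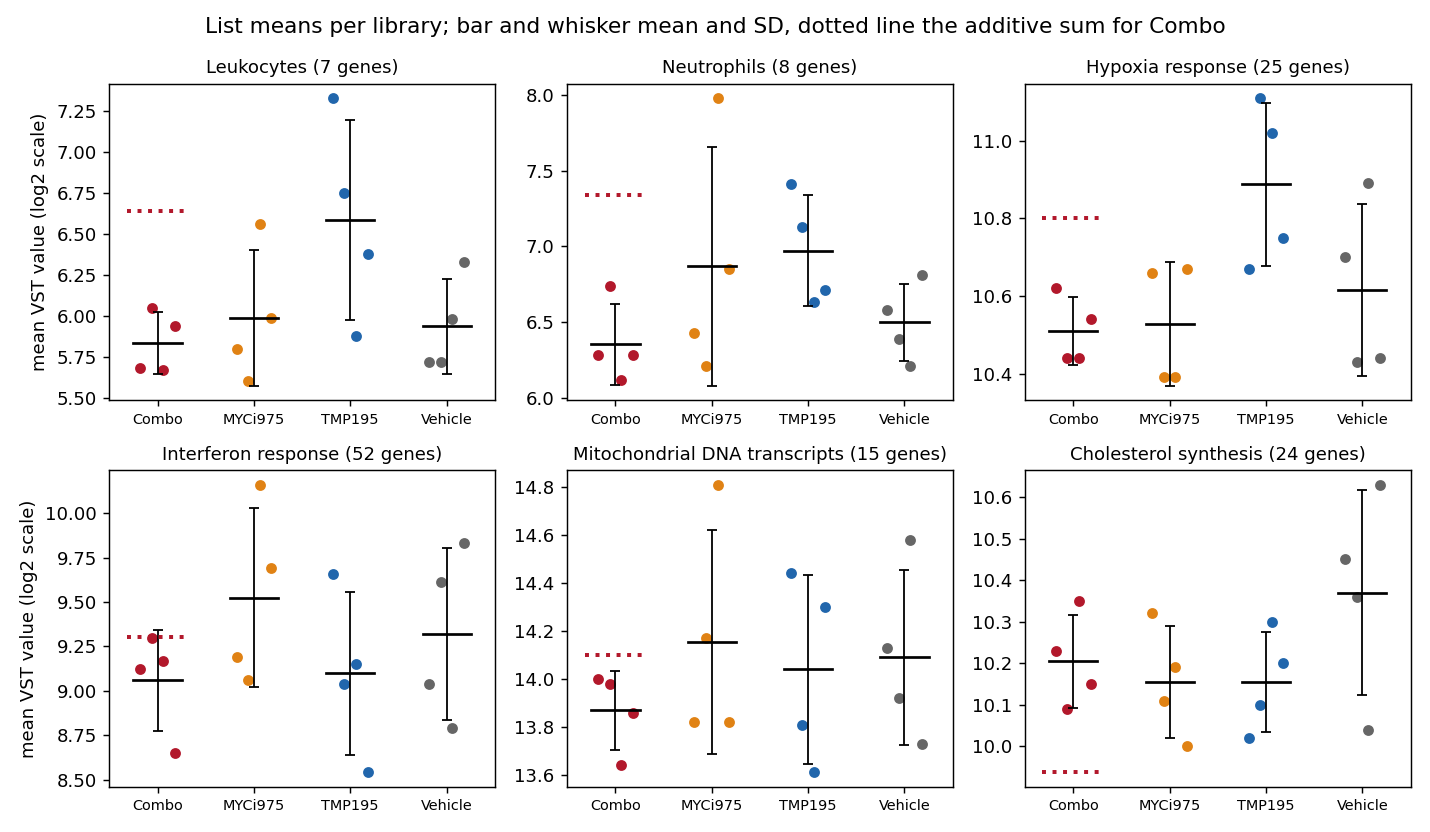
Mean variance-stabilised value on the log2 scale (y axis) of the tested members of 6 gene lists in each library of Combo, MYCi975, TMP195 and Vehicle (x axis), with the group mean and SD (n = 4 libraries) as bar and whisker and the additive sum for Combo as a dotted line. TMP195 replicate 1 is the highest library for leukocyte markers at 7.33 and MYCi975 replicate 3 the highest for neutrophil markers at 7.98, interferon response genes at 10.16 and mitochondrial DNA transcripts at 14.81.

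Hypoxia genes had mostly negative estimates, and their median was negative under all 28 alternatives. That was not particular to this list. The medians of cholesterol synthesis, WNT signalling and mitosis, among others, also kept their sign, which was positive, under all 28. Of 25 tested, 21 were negative, with a median of -0.28, but only Car9 had an unadjusted p under 0.05. Adm, the vasodilator peptide adrenomedullin, had -0.76 (95% interval -1.54 to 0.02), and Bnip3, an outer membrane receptor of mitophagy, had -0.46 (-1.02 to 0.10). The list mean was 10.62, 10.44, 10.44 and 10.54 in Combo, 10.66, 10.39, 10.39 and 10.67 in MYCi975, 10.67, 11.11, 11.02 and 10.75 in TMP195, and 10.70, 10.43, 10.89 and 10.44 in Vehicle. TMP195 replicates 2 and 3 were the highest of the 16, with leukocyte marker means of 6.75, the second highest of all, and 5.88. TMP195 replicate 1, at 10.67, was the lowest TMP195 library, so leaving it out raises the TMP195 mean of this list. Without TMP195 replicate 1 and MYCi975 replicate 3 the median was -0.39, with 9 of 25 genes negative at an unadjusted p under 0.05. With the leukocyte covariate the median was -0.40, with 8 genes. Of all genes 1.28% and 0.85% were negative at that threshold in those fits. The median was -0.18 without Vehicle replicate 4, -0.17 without all libraries numbered 4, with 1 gene at that threshold, and -0.27 without TMP195 replicates 1 and 2, with 2. Glycolysis, part of which is induced by hypoxia, had a median of -0.03 over 23 genes, with the regulatory enzyme Pfkfb3 at -0.69 and the phosphofructokinase Pfkp at -0.54.

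The promoters of the 3 hypoxia genes of smallest p that have a single promoter in the RefSeq table (GRCm38.p6) are printed to show what sequence they hold. Each runs from 250 bases before the start of transcription to 50 bases after it, on the strand of the gene. Capitals mark ACGTG on either strand, the only form of the core of the hypoxia response element that was searched. It is called the core here, and other forms were not marked or counted. The core overlaps the MYC E-box, CACGTG, which holds it on both strands.
Car9 (chr4:43506776-43507075, plus strand): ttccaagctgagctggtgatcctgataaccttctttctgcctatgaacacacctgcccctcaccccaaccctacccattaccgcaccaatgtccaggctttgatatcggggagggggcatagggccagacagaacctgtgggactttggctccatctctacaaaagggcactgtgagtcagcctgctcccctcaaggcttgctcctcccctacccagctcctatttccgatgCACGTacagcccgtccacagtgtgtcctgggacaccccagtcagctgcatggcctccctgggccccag
Adm (chr7:110627407-110627706, plus strand): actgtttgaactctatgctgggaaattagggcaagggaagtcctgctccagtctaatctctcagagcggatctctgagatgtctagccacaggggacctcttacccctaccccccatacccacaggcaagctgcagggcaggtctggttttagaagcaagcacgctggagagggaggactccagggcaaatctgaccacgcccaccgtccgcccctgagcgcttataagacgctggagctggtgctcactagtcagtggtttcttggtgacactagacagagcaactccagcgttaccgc
Bnip3 (chr7:138909457-138909756, minus strand): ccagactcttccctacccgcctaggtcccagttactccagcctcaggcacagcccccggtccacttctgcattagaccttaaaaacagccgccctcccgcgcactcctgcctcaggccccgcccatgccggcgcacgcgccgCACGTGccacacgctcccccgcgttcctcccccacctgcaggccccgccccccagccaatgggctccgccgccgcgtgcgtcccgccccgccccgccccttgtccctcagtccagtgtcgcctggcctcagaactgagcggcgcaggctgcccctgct
The window of Car9 holds 1 core of this form, 18 bases before the start, and that of Bnip3 holds an E-box, 108 bases before the start. That of Adm holds neither of these sequences, which does not exclude other forms of the core. Over 32851 promoters of this length, 19.6% hold the core and 7.2% hold the E-box. By gene, 15 of the 20 hypoxia genes found in the table had the core in at least 1 promoter, against 21.8% of 27025 genes. Most of the listed genes are textbook targets of hypoxia-inducible factors, so this describes the list and says nothing of binding in these cells.

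Interferon response and MHC class I genes had mostly negative estimates whose size and sign depended on which libraries were included. Of 52 interferon genes 44 were negative, with a median of -0.25, Stat2 at -0.57, the antiviral enzyme Oas2 at -0.77 and none at an unadjusted p under 0.05. The list mean was 9.12, 9.30, 9.17 and 8.65 in Combo, 9.19, 9.06, 10.16 and 9.69 in MYCi975, 9.66, 9.04, 9.15 and 8.54 in TMP195, and 9.04, 9.61, 8.79 and 9.83 in Vehicle. Every group overlapped every other, and MYCi975 replicate 3 was the highest library. Without TMP195 replicate 1 and MYCi975 replicate 3 the median was 0.13, with 36 of 52 genes positive, and with the leukocyte covariate it was 0.15. It was -0.04 without MYCi975 replicate 3, -0.05 without TMP195 replicates 1 and 2, -0.42 without TMP195 replicate 4, and -0.40 without all libraries numbered 4, with 51 of 52 negative. MHC class I presentation genes had a median of -0.14 (17 of 21 negative), which became 0.02 without TMP195 replicate 1 and MYCi975 replicate 3 and 0.09 with the covariate. It was -0.002 without TMP195 replicate 1, -0.43 without TMP195 replicate 4, and -0.39 without all libraries numbered 4, with 7 of 21 negative at an unadjusted p under 0.05. H2-Q7, a class I molecule, had -1.23 (unadjusted p = 0.0493) and H2-Q6 had -0.77, and both share sequence with other class I genes.

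The filter kept 23 of the 30 chemokine and cytokine genes that the data hold. A weak gene can pass through the group in which it is high, so its sign can follow in part from the filter. Among the 23 tested chemokines and cytokines, 6 were negative and 1 was positive at an unadjusted p under 0.05, against 1.60% and 1.40% of all genes. The negative ones were Ccl6, Cxcl3, Ccl9 at -1.01, Il1b, the interleukin 1 receptor antagonist Il1rn at -0.97 and Cxcl2, which draws neutrophils, at -1.47. Myeloid cells can make all of these, and the neutrophil and macrophage markers had the values given above. The positive one was the growth factor Tgfb3 at 0.68. With the leukocyte covariate 3 genes were negative and 0 positive at that threshold. The median of the 23 was -0.15, which became -0.04 without Combo replicate 2 and -0.45 without TMP195 replicate 4. Over all 28 alternatives it ran from -0.485 to 0.074 and was negative in 27.

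Genes of proliferation and of cholesterol synthesis had mostly positive estimates. Of 42 mitosis genes 38 were positive (median 0.20), with the cytokinesis protein Anln at 0.55 and the kinesin Kif20b at 0.59, none at an unadjusted p under 0.05. Of 46 DNA replication genes 37 were positive (median 0.17), and 2 had an unadjusted p under 0.05, Rrm2, a subunit of ribonucleotide reductase, at 0.54 and the replication initiation factor Mcm10 at 0.46. Replication-dependent histone genes had a median of 0.18 over 56 genes, with Hist2h3c1 at 1.49 and Hist1h3g at 0.77, and histone genes share reads with near-identical copies. Hist2h3c1 lay at the lowest value in all TMP195 libraries and in 3 libraries each of Combo and MYCi975, and its additive sum of 3.77 is below that value. With the leukocyte covariate the medians were 0.06 for mitosis, 0.09 for DNA replication and 0.01 for histones. Single libraries moved them too: mitosis was at 0.11 without Vehicle replicate 2, DNA replication at 0.06 without Vehicle replicate 4 and histones at 0.02 without TMP195 replicate 1. Without TMP195 replicates 1 and 2 they were 0.03, 0.09 and -0.15.

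Of 24 genes of cholesterol synthesis 23 were positive, with a median of 0.28, and none had an unadjusted p under 0.05. Hmgcs1, the synthase ahead of HMG-CoA reductase, had 0.45 (95% interval -0.00 to 0.91) and the sterol dehydrogenase Nsdhl had 0.48 (-0.02 to 0.98). The list mean was 10.23, 10.09, 10.35 and 10.15 in Combo, 10.32, 10.11, 10.19 and 10 in MYCi975, 10.02, 10.10, 10.30 and 10.20 in TMP195, and 10.45, 10.36, 10.04 and 10.63 in Vehicle. Vehicle replicate 3 lay among the treated libraries and the other Vehicle libraries above all of them, while the 3 treated groups overlapped one another. The median was 0.17 without Vehicle replicate 4, 0.18 without TMP195 replicate 1 and MYCi975 replicate 3, 0.15 without TMP195 replicates 1 and 2, and 0.17 with the covariate. Fatty acid synthesis had a median of 0.11 over 14 genes, with Scd2 at 0.32 and Elovl6 at 0.41, and purine and pyrimidine synthesis had 0.11 over 26 genes, 22 positive, with the folate enzyme Mthfd1l at -0.47.

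WNT signalling was the developmental list with the most one-sided positive estimates. Of 26 tested genes 22 were positive, with a median of 0.29, and 2 had an unadjusted p under 0.05, against 1.40% of all genes in that direction, the WNT transcription factor Lef1 at 0.73 and the receptor Fzd4 at 0.57. The list mean was 8.30, 8.35, 8.45 and 8.31 in Combo, 8.19, 8.33, 7.95 and 8.40 in MYCi975, 8.15, 8.16, 8.18 and 8.12 in TMP195, and 8.29, 8.27, 8.41 and 8.20 in Vehicle. Every TMP195 library lay below every Combo and Vehicle library, and MYCi975 overlapped all of them. The median was 0.15 without MYCi975 replicate 3 and 0.18 with the covariate. Collagens and matrix genes had a median of 0.06 over 39 genes, with the proteoglycan Lum at 1.15 and the basement membrane collagen Col4a1 at -0.61. The median was -0.06 without MYCi975 replicate 3, -0.09 without that library and TMP195 replicate 1, and -0.14 with the covariate. Genes of epithelial and mesenchymal state had 0.09, with Krt18 at 0.59 and the integrin Itgb3 at 0.98.

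With all 16 libraries, the medians of stress and survival lists lay near 0. The integrated stress response had a median of 0.10 over 29 genes, with its transcription factors Atf4 at 0.36 and Atf5 at 0.34. The unfolded protein response of the endoplasmic reticulum had -0.01 over 21 genes, with the sensor Ern1 at -0.35 and the chaperone Dnajb11 at 0.28. NRF2 and antioxidant genes had 0.03, with Sod2 at -0.31 and Osgin1 at 0.21, and autophagy and lysosome genes had 0.00, with Neu1 at -0.41 and the kinase Ulk1 at -0.39. The p53 targets had 0.07, with Ccnd1 at 0.40, the BCL2 family had 0.06, with Bcl2 at 0.36 and the death-promoting member Bbc3 at -0.33, and the proteasome had 0.07, with Psmd3 at 0.20 and Psmd11 at 0.27. The p53 median depended on the libraries: it was -0.13 without TMP195 replicate 4 and 0.32 without TMP195 replicates 1 and 2. In the latter fit 3 of 23 genes were positive at an unadjusted p under 0.05, against 1.37% of all genes.

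**Figure D5:**
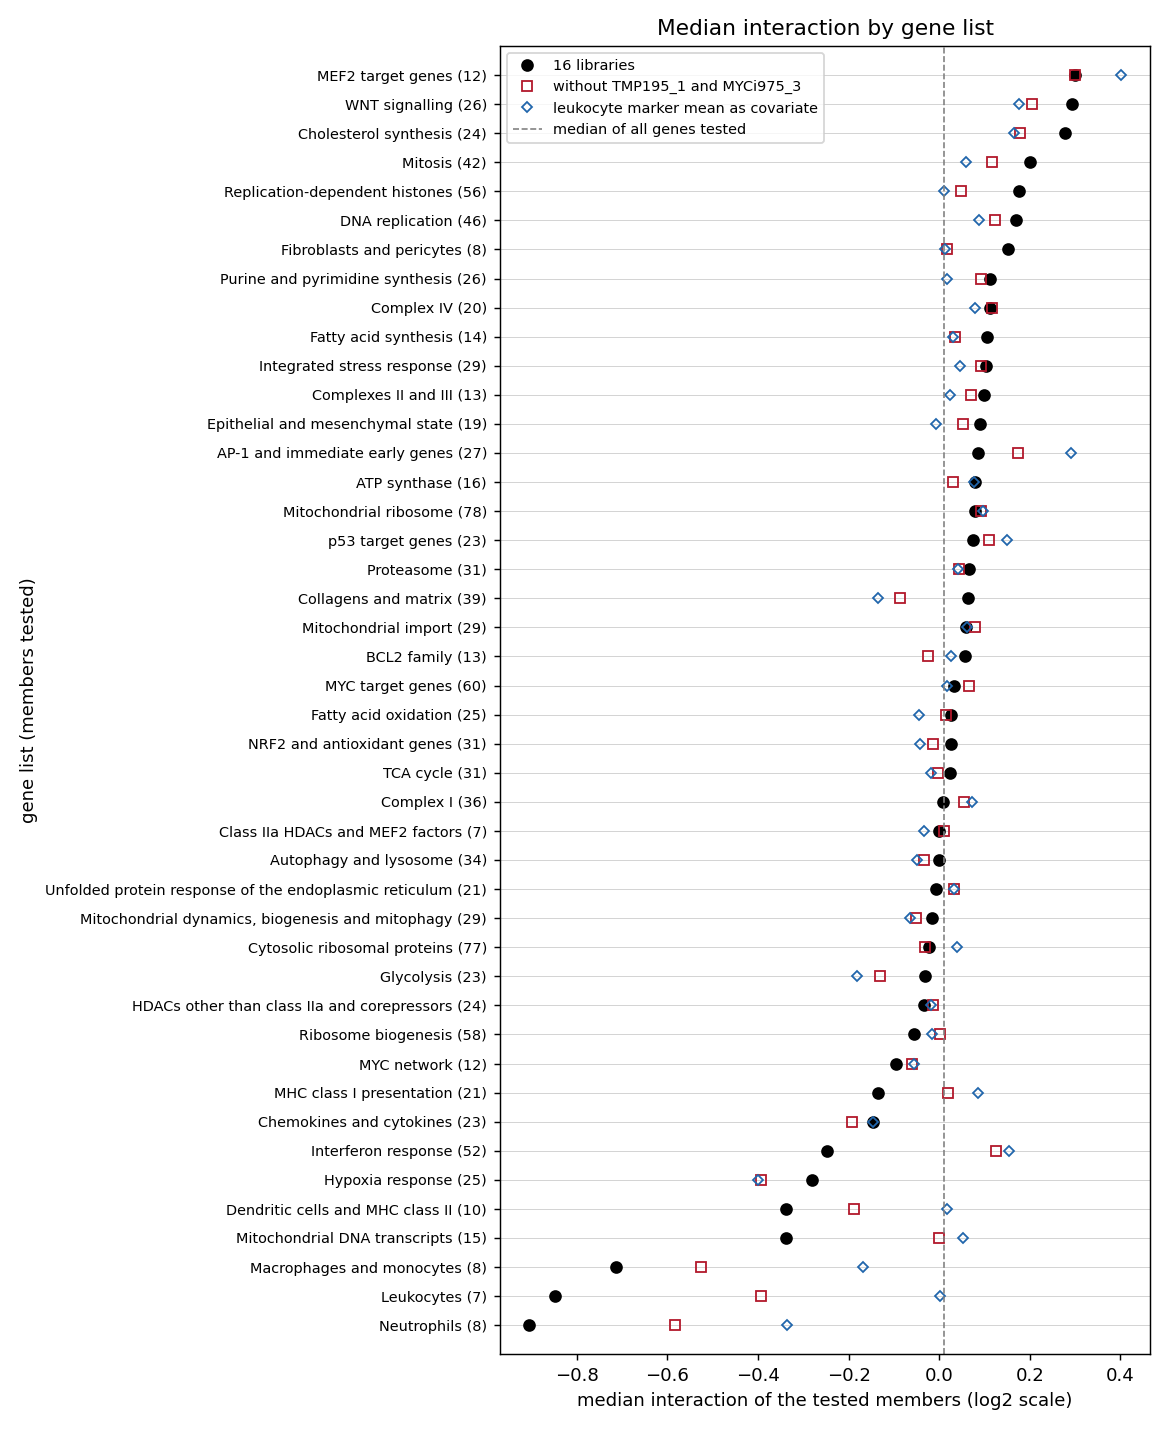
Median interaction on the log2 scale (x axis) of each gene list with at least 5 tested members (y axis, number of members in brackets), from all 16 libraries (filled circles), without TMP195 replicate 1 and MYCi975 replicate 3 (squares), and with the leukocyte marker mean as a covariate (diamonds). Hypoxia response is negative in all 3, at -0.28, -0.39 and -0.40, while interferon response is at -0.25, 0.13 and 0.15.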

How the data were processed

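RNA from enriched tumour cells was sequenced in 16 libraries, built with a stranded total RNA kit per the labels' protocols. For 24334 mouse genes the authors deposited 1 table of log2 values that had gone through variance stabilisation. The submitters' processing notes list Salmon, with no version, and hg38 as the build, yet samples and gene identifiers are of mouse. Which program did the variance stabilisation, and with which annotation, is not given in the sources used here. Without counts, the depth per library is unknown and no counting interval was computed. The number of genes at the lowest value, 4.84, ran from 1960 to 3130 per library. Symbols were found for 23150 identifiers (95.1%).

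Groups came from the treatment label. A fit of 1 mean for each group was made with limma 3.58.1 in R 4.3.3 (empirical Bayes with intensity trend), and the interaction was tested two-sided, with Benjamini-Hochberg adjustment over 15715 genes, called at an adjusted p under 0.05. The fit was tested on simulated data. Named genes are the 12 positive and 12 negative genes of smallest p, without predicted genes, Myc, Max, the class IIa deacetylases and Ptprc, and the 2 members of smallest p of each pathway list. S100a9, Il1b, Ccl9, Il1rn, Cxcl2, Tgfb3 and Col3a1 were named after their values were seen. The genes, the 53 lists (39 of pathways, 14 of other cell types) and the tests were chosen with earlier results of these data known. No list was tested. Alternatives changed the filter, the moderation, the scaling, the weights, the covariates and the libraries. Mycl did not pass the filter, and Mycn is not analysed here. Promoter sequences are from RefSeq.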

Additional observations from a re-analysis of the deposited data

Results flagged for a closer look

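In 41 of 620 groups of 4 libraries examined, over the named genes and the list means, the highest or lowest library stood so far from the other 3 that its gap to the nearest made up nearly the whole range of the group (beyond Dixon's 95% critical value). Chance alone flags about 1 group in 20. The values below are on the log2 scale, and no explanation was tested.

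Combo replicate 1 lay above the rest of its group for Ccnd1 at 13.06, Bnip3 at 11.69, Atf4 at 12.53 and Atp5h at 10.09. Combo replicate 2 lay above the rest of its group for Hist2h3c1 at 6.53. Combo replicate 2 lay below the rest of its group for Rrm2 at 10.76 and the mean of Cytosolic ribosomal proteins at 12.37. Combo replicate 3 lay above the rest of its group for Scd2 at 14.40. Combo replicate 3 lay below the rest of its group for Mthfd1l at 11.15. Combo replicate 4 lay above the rest of its group for Tomm40 at 9.97.

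MYCi975 replicate 2 lay above the rest of its group for Uqcr10 at 8.79 and Lef1 at 6.43. MYCi975 replicate 2 lay below the rest of its group for the mean of other HDACs and corepressors at 9.94. MYCi975 replicate 3 lay above the rest of its group for Hist2h3c1 at 5.99 and Oas2 at 9.61. MYCi975 replicate 3 lay below the rest of its group for Lum at 11.43, Itgb3 at 7.24 and the mean of Complexes II and III at 9.73. MYCi975 replicate 4 lay above the rest of its group for Hoxc8 at 6.76, Adgrl1 at 8.25, Egr1 at 12.58 and the mean of MEF2 target genes at 10.82.

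TMP195 replicate 1 lay above the rest of its group for C4b at 6.46. TMP195 replicate 2 lay above the rest of its group for Acvr2b at 8.44. TMP195 replicate 2 lay below the rest of its group for Hmgcs1 at 11.51, Mrto4 at 9.66 and Bcl2 at 10.71. TMP195 replicate 3 lay above the rest of its group for Tmem97 at 8.35. TMP195 replicate 4 lay above the rest of its group for Rpl35 at 13.60. TMP195 replicate 4 lay below the rest of its group for Fosl2 at 11.87, Itgb3 at 7.92, the mean of Complex IV at 9.19 and the mean of BCL2 family at 9.19.

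Vehicle replicate 3 lay below the rest of its group for the mean of Complexes II and III at 9.81, the mean of TCA cycle at 10.51 and the mean of Fatty acid oxidation at 9.51. Vehicle replicate 4 lay above the rest of its group for Ccl6 at 6.62, Rpl35 at 13.92, Mthfd1l at 12.46 and the mean of Macrophages and monocytes at 6.84. Vehicle replicate 4 lay below the rest of its group for Max at 10.40.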

How the results depend on the processing

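No gene was called for the interaction under any of the 28 alternatives. The count at an unadjusted p under 0.05 was 471 as reported, 950 with no filter, 193 with the stricter filter, 765 with sample quality weights, 240 with the leukocyte covariate, and between 316 (without MYCi975 replicate 3) and 764 (without MYCi975 replicate 2) with 1 library left out. Same-numbered libraries were not taken as pairs, since 15 of 24 such pairs, and not all, had a correlation of deviations over 0.1. Their median was 0.187, against -0.040 for the other pairs, and 8 of 16 libraries correlated best with their own number in every other group. These were the libraries numbered 1 and 4. Their same-numbered correlations ran from 0.172 (Combo and Vehicle replicates 4) to 0.428 (Combo and MYCi975 replicates 1). The fit of 1 mean per group does not model this shared variation. With replicate number as a block 0 genes were called and 591 had an unadjusted p under 0.05. Single named genes crossed that threshold in both directions in the blocked fit (limma). The mitosis genes Anln (unadjusted p = 0.0253) and Kif20b (0.0312) fell below it, while Rrp7a (0.0589) and H2-Q7 (0.0706) rose above it. Statements that no gene of a list reached the threshold hold for the fit without the block. Across the alternatives, estimates of 7 single genes changed sign. Hdac9 was at 0.01 after quantile normalisation and at 0.01 without TMP195 replicate 1 and MYCi975 replicate 3, and Hdac5 was at -0.03 with weights and at -0.007 without the libraries numbered 4. With the leukocyte covariate Max was at -0.011, Uqcrh at -0.049 (0.31 as reported) and mt-Atp6 at 0.028 (-0.59 as reported). Without TMP195 replicates 1 and 2, chosen after seeing the data, 390 genes had an unadjusted p under 0.05, Myc was at 0.087 and Hdac9 at 0.022. The median of MEF2 target genes was 0.14 with no filter and 0.18 with the stricter one. With 1 library left out Myc ran from -0.33 to 0.034, Max from -0.008 to 0.16, Hdac4 from -0.18 to 0.011, Hdac5 from -0.06 to 0.15 and Hdac9 from -0.14 to 0.083. The cause was not tested. All 24 leading genes kept their sign in every setting that tested them, though the stricter filter tested only 10 of them. They were picked for a small p in these same libraries, so this is no independent check. The depth is unknown, and 4 libraries per group bounded departures to within 0.5 for 25% of genes only.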
